A study of Bubalus bubalis with 8 samples.

Results

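The alarmins and acute phase mammary defence genes taken here were S100A8, S100A9, S100A12, SAA3, LTF and HP, 6 of the 24839 gene names on the array, and every probe that carried one of these names was followed on all 8 arrays. They had 21 probes, namely 1 for S100A8, 2 for S100A9, 3 for S100A12, 7 for SAA3, 5 for LTF and 3 for HP. Each array stood for 1 condition of mammary epithelial cells (MECs) of riverine buffalo (Bubalus bubalis). The unstressed cells, CTR, stayed at 37 °C, and the label of that array gives no time of harvest. The heat-stressed cells spent 1 h at 42 °C, went back to 37 °C and were harvested after 30 min or after 2, 4, 8, 12, 16 or 24 h. All cells came from 1 healthy adult animal and were used at passage 10 on collagen-coated plates. The oligonucleotides of the array were designed for cattle, so a probe may bind buffalo RNA less well than its bovine target. With 1 array per condition no difference has a replicate check, no test was possible, and no p-value is given.

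S100A8 and S100A9 pair up as calprotectin, a calcium-binding protein that withholds zinc and manganese from microbes, and S100A12 is their close relative calgranulin C. Outside the cell all of them act as alarmins, danger signals read by receptors such as TLR4 and AGER, and neutrophils and monocytes are their best known source. SAA3 encodes the serum amyloid A made in the mammary gland itself, LTF encodes the iron-binding milk protein lactoferrin, and HP encodes haptoglobin, which binds free haemoglobin. Milk of an inflamed udder is known for raised levels of these proteins.

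The probe sequences below show which RNA each array value reads, 5' to 3', for probes of the genes on which the results turn. The capitals mark the longest stretch shared by the 2 SAA3 probes of a pair, and probes without a partner are all in lower case.
S100A12 A_73_P247181: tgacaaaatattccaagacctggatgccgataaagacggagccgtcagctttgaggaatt
S100A9 A_73_110650: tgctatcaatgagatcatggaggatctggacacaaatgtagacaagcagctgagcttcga
LTF A_73_P048381: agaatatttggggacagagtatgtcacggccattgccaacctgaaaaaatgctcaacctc
LTF A_73_P379426: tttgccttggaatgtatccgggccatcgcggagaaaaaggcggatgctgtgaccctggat
SAA3 A_73_P060831: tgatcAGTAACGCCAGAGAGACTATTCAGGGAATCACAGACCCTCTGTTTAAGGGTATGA
SAA3 A_73_P060851: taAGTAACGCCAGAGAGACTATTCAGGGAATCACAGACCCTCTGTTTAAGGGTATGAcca
SAA3 A_73_P397591: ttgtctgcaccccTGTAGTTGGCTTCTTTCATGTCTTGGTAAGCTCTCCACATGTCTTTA
SAA3 A_73_P399596: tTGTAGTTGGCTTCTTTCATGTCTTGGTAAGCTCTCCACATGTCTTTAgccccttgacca

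The file headers place the probes on the bovine build Btau_3.1. S100A8, S100A12 and S100A9 lie close together on chromosome 3, with S100A12 A_73_P247181 at chr3:18500122-18500181 on the plus strand and S100A9 A_73_110650 at chr3:18511639-18511698 on the minus strand. LTF A_73_P048381 reads chr22:54345392-54345451, and the 60 bases of LTF A_73_P379426 are spread over 3036 bases, chr22:54317888-54320923, so that this probe joins separate stretches of the genome as a spliced RNA does. The SAA3 probes A_73_P060831 and A_73_P060851 share 55 bases on chromosome 29 and also reach over a gap, chr29:27684560-27685007 and chr29:27684557-27685004 on the minus strand. Each of them lists 2 RefSeq records and SAA3 A_73_P060826 lists 3, so these probes may read more than 1 copy of a serum amyloid A gene. SAA3 A_73_P397591 is an expressed sequence tag on the plus strand at chr29:27685076-27685135, opposite to the SAA3 probes beside it. A_73_P399596 shares 47 bases with it but is placed elsewhere, at chr29:27772750-27773150 on the minus strand. The 3 HP probes lie on chromosome 18.

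In what follows a level is the log2 intensity of a probe minus the 75th percentile of its array, and a change is the level minus that of the same probe on the CTR array. A probe counts as bright where Feature Extraction marked it well above background and as dim elsewhere. Where CTR was dim, the lowest bright level of the CTR array, or the probe's own level if that was higher, took its place, and the fold is then a bound, written as at least N-fold. The error given with a change is the spread between repeated spots of a probe, combined over both arrays. It was pooled over the probes spotted more than once and bright, 14 (24 h) to 24 (2 h) of them per array. Each member probe had a single spot on an array, so the error is that of other probes. It lay between 0.28 (8 h) and 0.54 (16 h) and holds no spread between cultures. At 30 min, where the deposited table has no single spots, the spot spread of CTR stood in for that array. Levels at 30 min come from the deposited log2 table, because the 30 min scanner file departs from it. Bright probes made up 23.2% (24 h) to 40.2% (2 h) of an array. Slide 1 held CTR, 8 h, 12 h and 24 h, and slide 2 held 30 min, 2 h, 4 h and 16 h. Because slide 2 had no CTR array, slide and heat stress cannot be told apart at its 4 time points. A rectangle of the CTR array read too dark, and the 2 member probes inside it, SAA3 A_73_110703 and S100A9 A_73_P203337, were not set against CTR.

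The members divided the arrays by slide. On slide 1 the number of bright member probes was 4 in CTR and 5, 6 and 5 at 8 h, 12 h and 24 h, and on slide 2 it was 11, 15, 14 and 13 at 30 min, 2 h, 4 h and 16 h. In CTR every bright member probe belonged to SAA3, whereas on each slide 2 array all members other than HP had a bright probe. Of the 19 member probes outside the dark rectangle, 10, 14, 13 and 12 were bright in CTR or at 30 min, 2 h, 4 h and 16 h. Among these, 6, 7, 5 and 10 were at least 3-fold higher than CTR at the same times. Among all probes outside the rectangle and bright on 1 of the arrays compared, the share called higher was 6.72%, 4.6%, 2.32% and 4.89% at these times. At 8 h, 12 h and 24 h, 4, 5 and 4 member probes were bright on either array. None of them was at least 3-fold higher, where the shares over all probes were 0.468%, 0.0958% and 0.089%. No member probe was at least 3-fold lower at any time point. The shares over all probes were 4.6%, 7.75%, 5.2% and 4.6% on slide 2 (30 min, 2 h, 4 h, 16 h) and 0.167%, 0.486% and 0.659% on slide 1 (8 h, 12 h, 24 h). A lower call needs a probe bright in CTR. Outside the rectangle only SAA3 A_73_P060826, A_73_P060851 and A_73_P060831 were, so the other members could not be called lower.

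The 28 calls at least 3-fold higher were mostly bounds, and 3 of them were left when both arrays had to be bright, all for SAA3 at 16 h. Of the 13 member probes with a level on all 8 arrays that were bright on at least 1, 11 lay higher on each slide 2 array than on each slide 1 array, and 9% of all such probes did so. The probes bright on all 4 slide 2 arrays and dim on all of slide 1 were S100A9 A_73_110650, S100A12 A_73_P050466 and LTF A_73_P048381, 3 of the 13, against 1.17% of all such probes. Most of the 13 were bright on slide 2 arrays alone. They passed the filter through the slide where they were high, so both counts only describe the values. Some of the 11 also rest on dim slide 2 values, namely S100A12 A_73_P247181 at 16 h (-1.59), and SAA3 A_73_P397591 (-1.08) and LTF A_73_P467448 (-0.52) at 30 min. The plot of levels by array shows both slides for each gene.

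**Figure D1:**
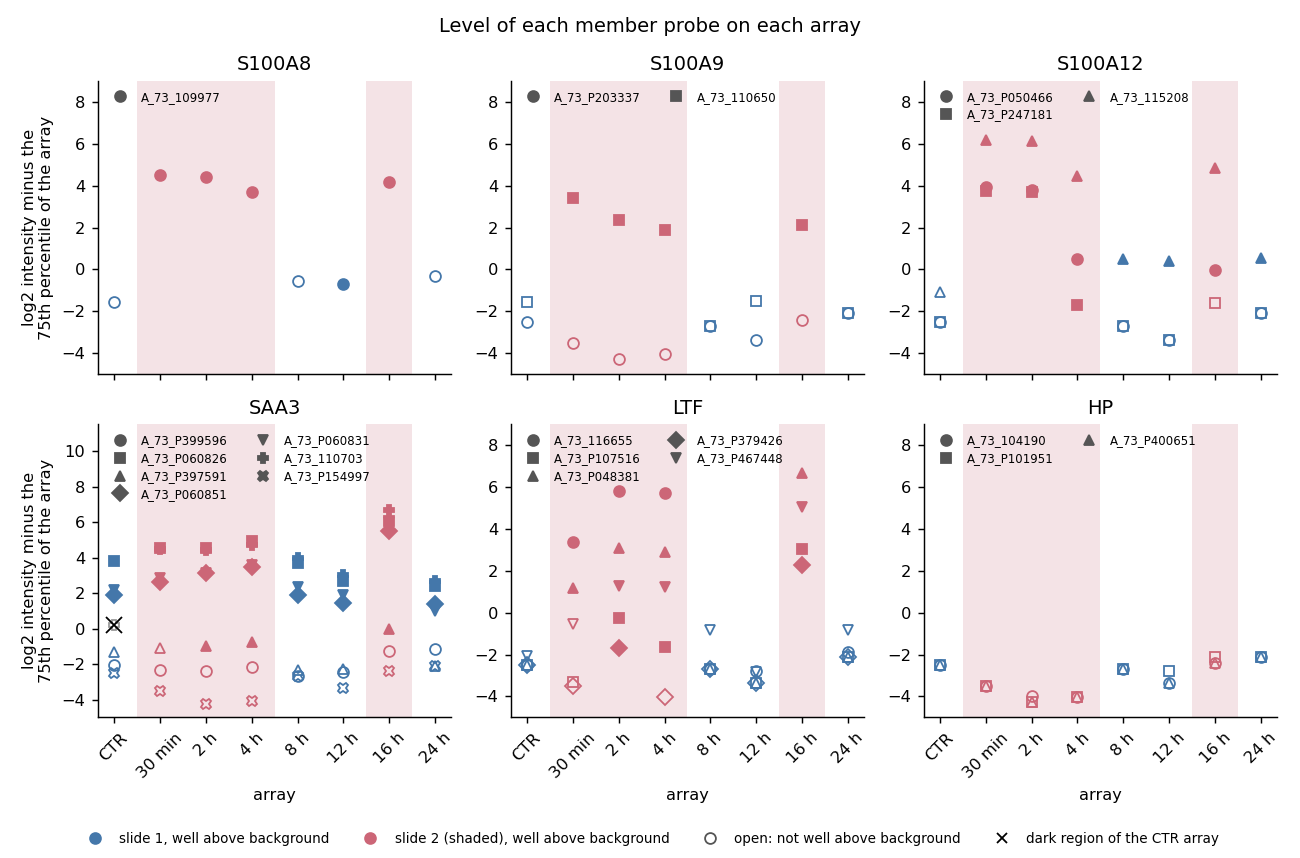
Level of each member probe (vertical axis, log2 intensity minus the 75th percentile of the array) on the 8 arrays in order of time (horizontal axis), 1 panel per gene and 1 symbol per probe, without error bars because each condition had 1 array. Slide 2 is shaded and red, slide 1 is blue, open symbols are probes not well above background, and the cross marks the SAA3 probe in the dark rectangle of CTR. S100A8 reached 3.70 to 4.52 on slide 2 and stayed between -1.56 and -0.30 on slide 1, and no HP probe was bright on any array.

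S100A8, a subunit of calprotectin, was dim in CTR, at 8 h and at 24 h, just bright at 12 h, and strong on all of slide 2. Its probe A_73_109977 had levels of 4.52, 4.42, 3.70 and 4.15 on slide 2 (30 min, 2 h, 4 h, 16 h), -1.56 in CTR, and -0.54, -0.69 and -0.30 on the rest of slide 1 (8 h, 12 h, 24 h). The 2 sets of arrays did not overlap. S100A8 was at least 26.3-fold, 24.6-fold, 15.0-fold and 20.5-fold higher than CTR at 30 min, 2 h, 4 h and 16 h. Within slide 2 the levels lay close together, with 2 h below 30 min by 0.10 ± 0.35 and 16 h below 2 h by 0.27 ± 0.57, both within the spread between spots. The level at 4 h was 0.72 ± 0.41 lower than at 2 h.

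S100A9, the partner of S100A8, had the same split between the slides. Its probe A_73_110650 had levels of 3.41, 2.35, 1.87 and 2.14 on slide 2 (30 min, 2 h, 4 h, 16 h), -1.55 in CTR, and -2.69, -1.49 and -2.09 on the rest of slide 1 (8 h, 12 h, 24 h). It was dim on every array of slide 1 and bright on every array of slide 2. S100A9 was at least 12.2-fold, 5.84-fold, 4.19-fold and 5.08-fold higher than CTR at 30 min, 2 h, 4 h and 16 h. From 30 min to 2 h it was lower by 1.07 ± 0.35, but on the 2 h array the bright probes around its spot deviated from their other arrays by a median of -0.71, beside -0.11 at 30 min. The part of this local deviation in the difference was not tested. The 30 min value of both genes rests on the deposited log2 values alone, since the 30 min scanner file marked the S100A8 spot as an outlier and held the S100A9 spot at -1.59, its value for spots not above the noise. The other S100A9 probe, A_73_P203337, an expressed sequence tag on the opposite strand, was dim on all 8 arrays.

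S100A12 was read by 3 probes, which differed from one another after 2 h. A_73_115208 had levels of 6.16, 6.13, 4.47 and 4.87 on slide 2 (30 min, 2 h, 4 h, 16 h), -1.10 in CTR, and 0.48, 0.41 and 0.57 on the rest of slide 1 (8 h, 12 h, 24 h). It was bright on all arrays other than CTR, and its slide 1 levels after heat were above CTR by bounds of 1.61-fold (8 h), 1.52-fold (12 h) and 1.70-fold (24 h). The bright probes around its spot deviated by a median of -0.39 in CTR, 0.45 at 8 h, 0.22 at 12 h and 0.03 at 24 h, so these small bounds cannot be told from differences between areas of the arrays. It was at least 82.3-fold, 80.6-fold, 25.5-fold and 33.5-fold higher than CTR at 30 min, 2 h, 4 h and 16 h.

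A_73_P050466, which shares 29 bases with A_73_115208, had levels of 3.92, 3.79, 0.49 and -0.02 on slide 2 (30 min, 2 h, 4 h, 16 h), -2.52 in CTR, and -2.69, -3.36 and -2.09 on the rest of slide 1 (8 h, 12 h, 24 h). A_73_P247181, from another stretch of the gene, had 3.76, 3.68 and -1.69 at 30 min, 2 h and 4 h, was dim at 16 h (-1.59), and was dim throughout slide 1. At 30 min and 2 h all 3 probes were high, with bounds of 17.4-fold and 15.9-fold for A_73_P050466 and of 15.6-fold and 14.7-fold for A_73_P247181. From 2 h to 4 h A_73_115208 was 3.16-fold lower, A_73_P050466 9.88-fold lower and A_73_P247181 41.4-fold lower. At 16 h against 2 h the difference was -1.27 ± 0.57 for A_73_115208 and -3.81 ± 0.57 for A_73_P050466, and A_73_P247181 was at least 13.6-fold lower. All 3 probes therefore placed 4 h and 16 h below 30 min and 2 h, but by amounts that differed more than the spread between spots, and the call at 4 h and 16 h against CTR rests on A_73_115208 alone.

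SAA3 was the 1 member bright in CTR and on every array, and the member whose CTR level allowed measured changes in both directions. A_73_P060826 had levels of 4.55, 4.57, 4.94 and 6.09 on slide 2 (30 min, 2 h, 4 h, 16 h), 3.80 in CTR, and 3.71, 2.70 and 2.39 on the rest of slide 1 (8 h, 12 h, 24 h). A_73_P060851 had 2.64, 3.10, 3.47 and 5.47 on slide 2 (30 min, 2 h, 4 h, 16 h), 1.90 in CTR, and 1.89, 1.45 and 1.37 on the rest of slide 1 (8 h, 12 h, 24 h). A_73_P060831 had 2.84, 3.14, 3.57 and 6.00 on slide 2 (30 min, 2 h, 4 h, 16 h), 2.16 in CTR, and 2.37, 1.91 and 1.01 on the rest of slide 1 (8 h, 12 h, 24 h). All 3 probes were highest at 16 h and lowest at 24 h. The step from 2 h to 4 h was 0.37 to 0.43, about the error of 0.41, and 24 h was within the error of 12 h for A_73_P060826 and A_73_P060851.

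Against CTR, SAA3 was 4.86-fold, 11.9-fold and 14.3-fold higher at 16 h by A_73_P060826, A_73_P060851 and A_73_P060831. At 4 h the same probes were 2.20-fold, 2.97-fold and 2.65-fold higher, below the 3-fold line. At 8 h the changes of -0.09, -0.01 and 0.21 lay within the error of 0.28, so SAA3 could not be told from CTR there. At 24 h they were -1.41 ± 0.36, -0.53 ± 0.36 and -1.15 ± 0.36, lower than CTR on the same slide by all 3 probes. At 12 h they were -1.11 ± 0.33, -0.45 ± 0.33 and -0.25 ± 0.33, of which the last lies within its error, and with normexp background correction the last 2 became 0.04 and 0.24. The bright probes around A_73_P060826 deviated by a median of 0.49 in CTR, -0.04 at 12 h and 0.18 at 24 h. The part of this local deviation in its falls was not tested. Around A_73_P060851 and A_73_P060831, which share 55 bases, the deviations were 0.07 and -0.04 in CTR and 0.09 and -0.07 at 24 h. Centring each array on its median instead of the 75th percentile moved the changes of all probes by a median of 1.08 at 4 h and 0.70 at 2 h, and put SAA3 past 3-fold at 4 h by all 3 probes and at 2 h by A_73_P060851 and A_73_P060831.

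The SAA3 probe in the dark rectangle, A_73_110703, shares 34 bases with A_73_P060826 and was compared without CTR, where its bright neighbours deviated from their other arrays by a median of -1.88. On slide 2 its level was 4.51, 4.42, 4.69 and 6.65 at 30 min, 2 h, 4 h and 16 h, and on slide 1 it was 3.96, 3.01 and 2.68 at 8 h, 12 h and 24 h. It was highest at 16 h and lowest at 24 h, as the other SAA3 probes were. Within slide 2 it was 4.70-fold higher at 16 h than at 2 h (2.23 ± 0.57), beside 2.87-fold, 5.17-fold and 7.28-fold for the 3 probes outside the rectangle. Within slide 1 it was lower at 24 h than at 8 h by 1.28 ± 0.35, beside 1.32, 0.52 and 1.35 for the same 3 probes. These comparisons hold no CTR array and no second slide.

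The probe named M-SAA3.2, a mammary serum amyloid A, was also highest at 16 h and lowest at 24 h, with levels of 3.53, 3.25, 3.41 and 5.81 at 30 min, 2 h, 4 h and 16 h. On slide 1 it had 2.99 in CTR and 2.91, 1.91 and 1.64 at 8 h, 12 h and 24 h. Its changes of 2.82 at 16 h and -1.35 at 24 h lay among those of the SAA3 probes. At 30 min, 2 h and 4 h its changes of 0.54, 0.26 and 0.42 were below those of A_73_P060826, A_73_P060851 and A_73_P060831. Of the 3 remaining SAA3 probes, all expressed sequence tags, A_73_P397591 was bright at 2 h (-0.97), 4 h (-0.78) and 16 h (0.00) and dim elsewhere, while A_73_P399596 and A_73_P154997 were dim on all 8 arrays. Of the 2 tags printed above, which share bases but are placed apart in the genome, 1 thus had a weak signal on 3 arrays and the other had none.

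**Figure D2:**
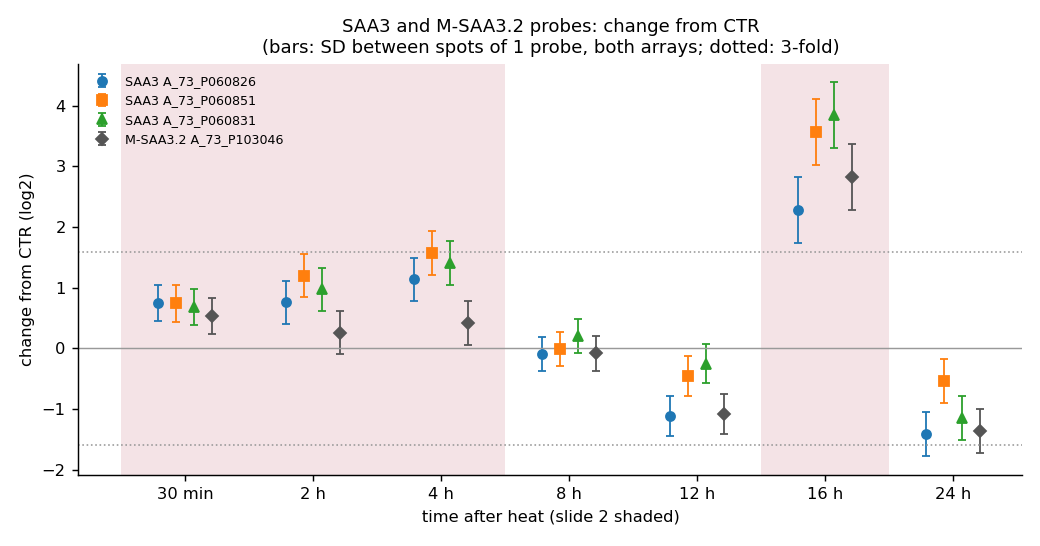
Change from CTR (vertical axis, log2) of the 3 SAA3 probes outside the dark rectangle and of the M-SAA3.2 probe at the 7 time points (horizontal axis, slide 2 shaded). Points are single arrays and dotted lines mark 3-fold. Bars are the spread between repeated spots on both arrays, pooled over other probes, because these probes had single spots. All 4 probes were highest at 16 h, between 2.28 and 3.84, and below 0 at 24 h.

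LTF, the lactoferrin gene, was dim in all 5 probes on every slide 1 array and reached its highest levels at 16 h. A_73_P048381 had levels of 1.17, 3.10, 2.89 and 6.68 on slide 2 (30 min, 2 h, 4 h, 16 h), -2.52 in CTR, and -2.69, -3.36 and -2.09 on the rest of slide 1 (8 h, 12 h, 24 h). It was at least 9.87-fold, 8.50-fold and 118-fold higher than CTR at 2 h, 4 h and 16 h, and its bound of 1.37 (log2) at 30 min stayed under 3-fold. A_73_116655 had 3.40, 5.82 and 5.70 at 30 min, 2 h and 4 h, with bounds of 12.1-fold, 64.8-fold and 59.9-fold, and its spot at 16 h carried an outlier mark and was left out. A_73_P467448 was dim at 30 min (-0.52) and had 1.27, 1.21 and 5.04 at 2 h, 4 h and 16 h, the last at least 37.8-fold above CTR. A_73_P107516 and A_73_P379426 reached 3.05 and 2.28 at 16 h, at least 9.48-fold and 5.57-fold above CTR.

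Within slide 2 the step from 2 h to 16 h was alike across LTF probes, and the earlier steps were less certain. From 30 min to 2 h A_73_P048381 was higher by 1.93 ± 0.35 and A_73_116655 by 2.42 ± 0.35 with the deposited 30 min values. In the 30 min scanner file these probes had levels of 3.76 and 5.88. Both lie in rows where scanner levels followed the deposited ones (r = 0.97) but were higher by a median of 2.44. These scanner levels cannot be set directly against 3.10 and 5.82 at 2 h, so this step is read from the deposited values. From 2 h to 4 h A_73_P048381, A_73_116655 and A_73_P467448, which lie near one another in the gene, moved by -0.21, -0.11 and -0.06, each within the error of 0.41. The more distant A_73_P107516 moved by -1.38 and A_73_P379426 went from bright (-1.66) to dim. From 2 h to 16 h the 4 probes with a value were higher by 3.29 (A_73_P107516), 3.58 (A_73_P048381), 3.77 (A_73_P467448) and 3.94 (A_73_P379426), each ± 0.57, a range of differences close to that error.

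HP, the haptoglobin gene, gave no bright value. Its probes A_73_104190, A_73_P101951 and A_73_P400651 were dim on all 8 arrays, with levels between -4.27 and -2.09. Haptoglobin RNA was thus not detectable with these bovine probes, which does not show that it was absent. At 30 min this holds in the deposited table and in the scanner file alike.

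Set side by side within slide 2, the genes differed in their step from 2 h to 16 h. At 16 h against 2 h, 13 of the 19 member probes were bright on either array. Of these, 6 were at least 3-fold higher, 4 of LTF and 2 of SAA3, where 5.53% of all such probes were. In the same comparison 2 were at least 3-fold lower, both of S100A12, where 3.79% of all probes were. S100A8 and S100A9 differed by -0.27 and -0.20 between 2 h and 16 h, each within the error of 0.57. For S100A9 the bright probes around the spot deviated by -0.71 at 2 h and 0.35 at 16 h, so that value may not hold the full difference. Within slide 1, at 24 h against 8 h, none of the 4 member probes bright on either array was 3-fold higher or lower. Of all such probes 0.238% and 0.881% were. These comparisons leave out CTR and the difference between the slides.

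**Figure D3:**
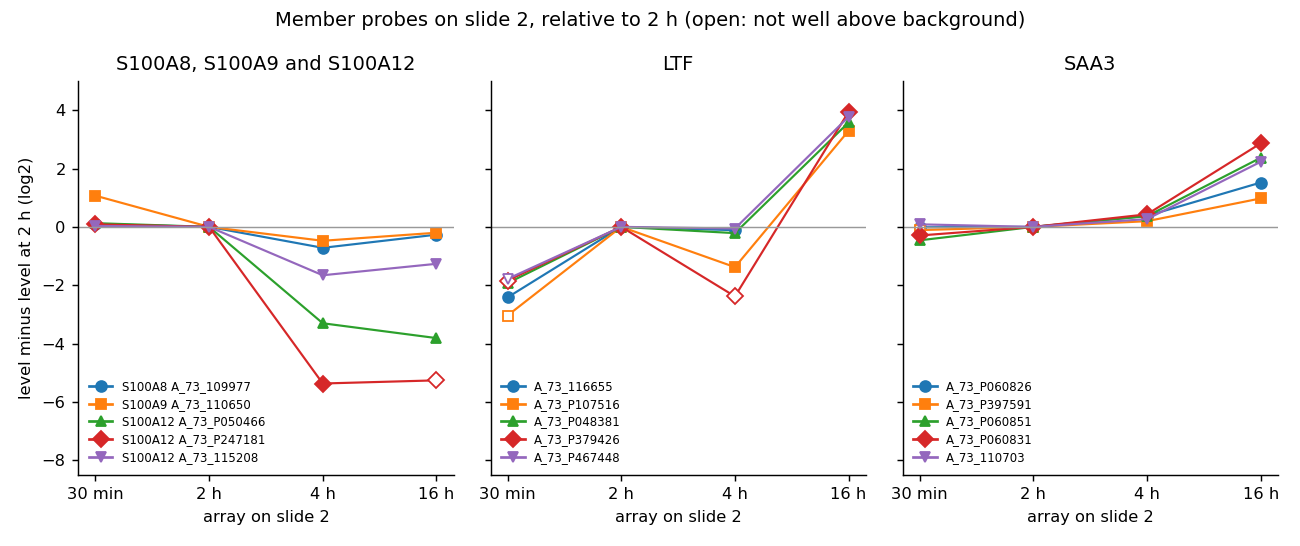
Level of each member probe that was bright at 2 h, minus its level at 2 h (vertical axis, log2), on the 4 arrays of slide 2 (horizontal axis). Each line is 1 probe measured on single arrays, open symbols are not well above background, and no error is drawn. The alarmin probes lay at or below their 2 h level at 4 h and 16 h, while LTF and SAA3 probes lay 0.98 to 3.94 above it at 16 h.

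The other S100 genes did not follow as a family. Of 33 probes for 15 further S100 genes, 16, 20, 19 and 18 were bright on either array at 30 min, 2 h, 4 h and 16 h. Among these, 2, 2, 4 and 3 were at least 3-fold higher, from 1, 1, 2 and 2 genes, and 2, 2, 2 and 1 at least 3-fold lower. No S100 probe of the list passed 3-fold at 8 h, 12 h or 24 h. Over all probes bright on either array, 6.72%, 4.6%, 2.32% and 4.89% were higher on slide 2 in order of time. The shares lower were 4.6%, 7.75%, 5.2% and 4.6%, and these shares also stand beside the list counts below. S100A4, linked to cell motility, was 14.9-fold, 12.7-fold, 4.91-fold and 10.4-fold higher at 30 min, 2 h, 4 h and 16 h. S100A10, the annexin A2 partner, went the other way and was 4.35-fold, 5.96-fold, 5.07-fold and 7.12-fold lower at the same times. The median change of the S100 probes bright on either array was -0.32, -0.26, 0.10 and 0.62 on slide 2 in order of time, beside -0.21, -0.30, -0.12 and -0.06 over all probes.

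Of 76 probes for 23 other acute phase genes, 12, 21, 10 and 20 were bright on either array at 30 min, 2 h, 4 h and 16 h. Among these, 4, 5, 2 and 7 were at least 3-fold higher and 2, 4, 3 and 2 lower, and none was called at 8 h, 12 h or 24 h. The median change of those bright on either array was 0.57, 0.57, -1.58 and 1.12 on slide 2 in order of time. CFB, complement factor B, was at least 15.4-fold, 23.9-fold, 8.93-fold and 16.3-fold higher at 30 min, 2 h, 4 h and 16 h. C3, the central complement protein, had its largest bound at 16 h (101-fold), the time point at which SAA3 and LTF were also highest. F3, tissue factor, was at -2.23, -2.43, -2.49 and -3.01 on the log2 scale at these times.

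The antimicrobial and milk defence list, which does not hold the members, had 54 probes for 23 genes. Of these, 14, 25, 16 and 16 were bright on either array at 30 min, 2 h, 4 h and 16 h. Among the bright ones 10, 10, 7 and 8 were at least 3-fold higher, none at 8 h, 12 h or 24 h, and 2 were lower, both at 4 h. Its median change was 2.60, 2.42, 1.67 and 1.61 at the slide 2 time points, over the 14 to 25 probes bright on either array. MUC1, a mucin of the milk fat globule, was 3.40-fold, 5.36-fold, 10.3-fold and 15.0-fold higher at 30 min, 2 h, 4 h and 16 h. SLPI, a protease inhibitor of secretions, was at least 4.39-fold to 7.87-fold higher on the 4 slide 2 arrays. NOS2, the inducible nitric oxide synthase, was 4.87 higher at 30 min and 4.23 higher at 2 h, and at 4 h lower by at least 3.08, all on the log2 scale.

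Receptors and signals upstream of these genes were called most often at 30 min and 2 h. Of 32 probes for alarmin and lipopolysaccharide receptors and their adaptors, 17, 21, 15 and 12 were bright on either array at 30 min, 2 h, 4 h and 16 h. Among these, 6, 5, 2 and 2 were at least 3-fold higher, while 2 were lower at each of the 2 earliest. Their median change was 0.29, 0.31, -0.24 and -0.12. CD14, which hands lipopolysaccharide to TLR4, was at least 26.7-fold higher at 30 min and 19.8-fold at 2 h and was not bright at 4 h or later. CD36, a scavenger receptor, was at least 10.8-fold, 6.18-fold, 12.9-fold and 8.70-fold higher at 30 min, 2 h, 4 h and 16 h. TLR4 A_73_P047906 was at least 6.77-fold and 5.11-fold higher at 30 min and 2 h and dim later. TLR2 A_73_115997 was at least 7.23-fold and 5.51-fold higher at these times, whereas TLR2 A_73_P215177, bright on all 8 arrays, changed by -0.13 and -0.01 on the log2 scale. AGER, the receptor for advanced glycation end products, was dim on all 8 arrays.

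Of 55 probes for IL1, IL6 and IL17 signalling toward acute phase genes, 29, 38, 26 and 17 were bright on either array at 30 min, 2 h, 4 h and 16 h. Among these, 17, 16, 1 and 2 were at least 3-fold higher, and 1 was lower at each of the last 3. Their median change was 2.58, 2.49, 0.36 and 0.58 at these times. IL1B, the cytokine interleukin 1 beta, was at least 116-fold and 61.9-fold higher at 30 min and 2 h and had no bright value later. NFKBIA, the inhibitor of NF-kB that is itself an NF-kB target, was 27.7-fold, 25.1-fold and 3.47-fold higher at 30 min, 2 h and 4 h. Among 30 probes for haem and iron handling, 15, 17, 14 and 14 were bright on either array at 30 min, 2 h, 4 h and 16 h, and 12 at 8 h. Of these, 3, 2, 0 and 2 were at least 3-fold higher on slide 2, 1 at 8 h, and 2 lower at 16 h. Median changes were 0.50, 0.33, -0.46 and 0.37 on slide 2. SLC40A1, the iron exporter ferroportin, had its largest bound at 16 h (9.08-fold), and HMOX1, haem oxygenase 1, was higher by 1.73 at 30 min, 1.67 at 8 h and 2.89 at 16 h on the log2 scale.

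Markers of other cell types differed between the same arrays. Of 12 neutrophil and macrophage genes, 3 to 5 had a bright probe on slide 1, and 9, 11, 6 and 7 did at 30 min, 2 h, 4 h and 16 h. Their summed level, in multiples of the 75th percentile, ran from 37.9 to 59.1 on slide 1 and 242, 208, 56.0 and 63.4 at these time points of slide 2. TYROBP, an adaptor of myeloid receptors, was at least 61.5-fold higher at 30 min and 43.8-fold at 2 h, while ITGAM, a defining myeloid integrin, was dim on all 8 arrays. LCP1, an actin-bundling protein of leukocytes, had the highest level in CTR (5.65) and at 4 h (5.38) and made up most of both sums. At 4 h the sum lay within the slide 1 range. The median change of the list was -0.59 there over 10 probes bright on either array, with 1 probe at least 3-fold higher and none lower. PTPRC, the leukocyte antigen CD45, was 1.68 (log2) higher than CTR there, while ITGB2 A_73_104443 and LCP1 changed by -1.10 and -0.27. CSF1R, CSF3R and TYROBP were bright at 4 h and dim in CTR, but the lowest bright level differed, -1.73 against -0.20. Their levels at 4 h were -0.24, -1.11 and -0.77, below the CTR limit, and TYROBP was at -0.33 in CTR. S100A8 was at least 15.0-fold above CTR on that array. S100A8, S100A9 and S100A12 are themselves typical of neutrophils, and the part of such cells in their levels was not tested. In bulk RNA more cells of a type and more RNA per cell cannot be told apart.

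Milk genes differed between the slides as well, and were highest at 16 h, where LTF and SAA3 were highest. Of 6 milk secretion genes 1 was bright on each slide 1 array, CSN2, and all 6 on each slide 2 array. Their summed level was 4.86 to 6.29 on slide 1 and 153, 72.1, 789 and 1688 at 30 min, 2 h, 4 h and 16 h. CSN1S1, alpha-S1-casein, was at least 10.8-fold, 5.50-fold, 176-fold and 400-fold higher than CTR at these times. LTF itself differed from this order, since it was no higher at 4 h than at 2 h. The part of milk-secreting cells in the levels of LTF and SAA3 was not tested.

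Most epithelial markers were bright on all arrays, but several were lower on slide 2. Of 7 luminal genes with a probe outside the dark rectangle 6 or 7 were bright on every array, and KRT18 was the gene missing on all arrays other than 2 h and 16 h. Their summed level was 267 to 334 on slide 1 and 86.5 to 278 on slide 2. Of 14 luminal probes, 10, 13, 11 and 11 were bright on either array on slide 2 in order of time. On each slide 2 array 4 of them were at least 3-fold lower than CTR, and none on slide 1. KRT8 holds 4 of the 14 and was the only luminal gene past 3-fold at 2 or more time points. KRT19, KRT7, EPCAM, CDH1 and CLDN4, in the probes bright on the most arrays, changed by -1.57, -1.51, -1.02, -0.41 and -1.16 (log2) at 30 min. At 16 h the same probes changed by 0.60, -1.13, 0.06, 0.35 and 0.06. KRT8 A_73_P204142, a luminal keratin, was 12.7-fold lower at 2 h and at least 14.8-fold lower at 4 h. Of 5 basal genes 4 were bright on every array, with TP63 missing, and their summed level was 396 to 638 on slide 1 and 185 to 476 on slide 2. Of 7 basal probes, 6 of them bright on either array, 3, 3, 0 and 1 were at least 3-fold lower at 30 min, 2 h, 4 h and 16 h. The part of a different makeup of cells in the member levels was not tested. Of 8 fibroblast genes 3 or 4 were bright on slide 1 and 1, 4, 5 and 8 at 30 min, 2 h, 4 h and 16 h. At 16 h 25 of 42 probes were bright on either array, and 10 were at least 3-fold higher. DCN, decorin, was at least 6.26 (log2) higher there by A_73_P099601 but changed by 0.37 by A_73_111861, and COL1A1, COL3A1 and VIM had changes of -1.40, -0.43 and -1.55 in the probes bright on the most arrays. HSPA1A, the heat-induced HSP70 gene, changed by 3.42, 2.84, 1.81 and 0.69 (log2) on slide 2 (30 min, 2 h, 4 h, 16 h). On slide 1 it changed by 4.55, 2.94 and -1.43 at 8 h, 12 h and 24 h. Its relation to the member levels was not tested.

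**Figure D4:**
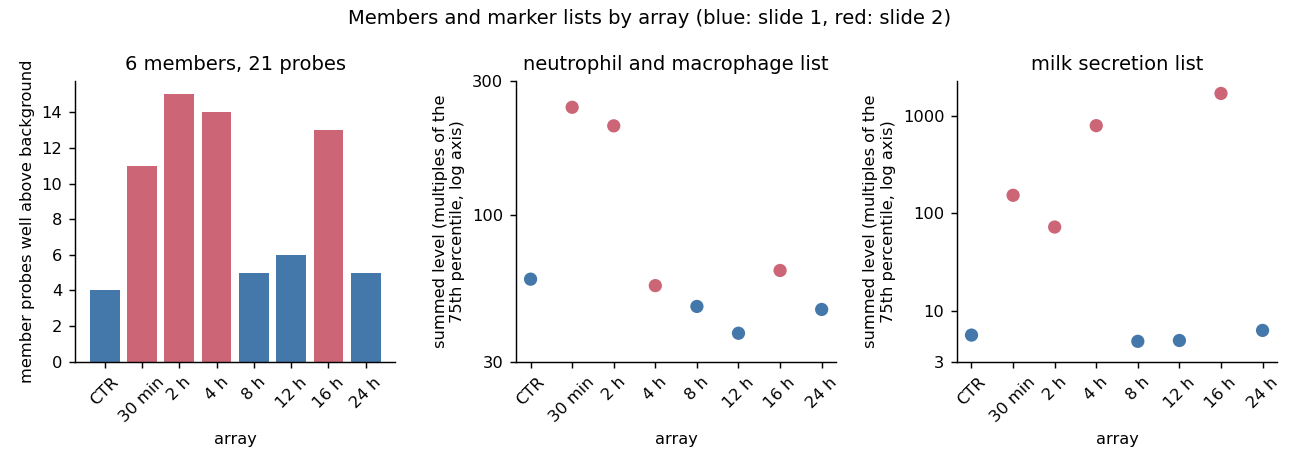
Left, number of the 21 member probes well above background on each array (bars from 0). Middle and right, summed level of the neutrophil and macrophage list and of the milk secretion list, in multiples of the 75th percentile of the array on a log axis, 1 point per array. Blue is slide 1 and red is slide 2, there are no replicates and no error bars. The myeloid list was highest at 30 min (242) and 2 h (208), the milk list at 4 h (789) and 16 h (1688), and member probes were bright most often on all 4.

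The 4 member probes outside the rectangle that were bright on at least 6 arrays were set beside other genes by the likeness of their levels. Pearson's r was taken over the 8 arrays against 8460 other probes, as a description without a test, and the arrays of a slide share their hybridisation. For S100A12 A_73_115208 the most alike were CXCL3 (r = 0.985), a neutrophil chemokine, JAK1 (r = 0.981) and ATP6V0C (r = 0.976). CXCL3 had levels of 5.85, 5.74, 4.30 and 4.59 at 30 min, 2 h, 4 h and 16 h, and between -0.15 and 0.84 on slide 1. For SAA3 A_73_P060826 they were APLP2 (r = 0.995), DDOST (r = 0.984) and FTSJ1 (r = 0.981), all with a narrower range than SAA3. For A_73_P060851 they were SPTBN1 (r = 0.996), C21H15orf40 (r = 0.994) and PRDX6 (r = 0.983), and A_73_P060831 had the same 3 genes with r = 0.973, 0.968 and 0.981.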

How the data were processed

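Total RNA of buffalo MECs was hybridised with Cy3 to bovine 4x44K arrays, 1 per condition. The authors scanned them with a GenePix instrument and deposited the intensity of each spot from Agilent Feature Extraction 9.5.3.1, with background and spatial trend removed and no scaling between arrays. The authors also deposited log2 values (GeneSpring GX), shifted to the 75th percentile, with each probe centred on its own median. Set against the scanner levels of 7 arrays, these log2 values differed by a constant per probe to within 0.024 for bright members, so scale, centring and direction are known. Their column medians were 0.44 in CTR, 0.33, -0.34 and 0.56 at 8 h, 12 h and 24 h, and -0.48, -0.99, -1.04 and 0.46 on slide 2 in order of time.

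Here log2 processed intensity minus the 75th percentile of the 43653 probes was used, with repeated spots averaged and outlier-marked spots dropped. At 30 min the scanner file gave r = 0.97 with the deposited values in rows 1 to 199 and r = -0.02 in rows 400 to 532, so the deposited values were used, and a probe counted as bright there from 0.22 upward, the highest limit of the other arrays. Slides were read from the file headers. The dark rectangle spans rows 216 to 330 and columns 30 to 59. Calls use 3-fold, the threshold of the study. Every member probe is named, and from each related or marker list up to 5 genes past 3-fold at 2 or more time points. Markers that bear on the cell type check are named besides. AGER, M-SAA3.2 and the second probes of TLR2, DCN and NFKBIA were named after their values were seen. Members and lists were chosen with earlier results of these data known. Scripts ran in Python 3.11.15 and limma 3.58.1 (normexp, offset 50) and were tested on simulated data. Intensities carry no read depth, and the number of arrays limits the precision. Alternatives are listed in the closing section.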

Additional observations from a re-analysis of the deposited data

Results flagged for a closer look

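SAA3 was on opposite sides of CTR at 16 h and 24 h. For A_73_P060826 the change was 2.28 at 16 h and -1.41 at 24 h, for A_73_P060851 3.57 and -0.53, and for A_73_P060831 3.84 and -1.15, all on the log2 scale and each beyond the spread between spots. Each time point was 1 array, and the difference was not tested. The bright probes around A_73_P060826 deviated by a median of 0.49 in CTR, -0.40 at 16 h and 0.18 at 24 h. The 16 h array lay on slide 2 and the 24 h array on slide 1 with CTR, so for the 16 h side slide and heat stress cannot be told apart.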

How the results depend on the processing

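No paired analysis was possible because each condition had 1 array and no comparison came from a test. The number of member probes at least 3-fold higher, summed over the 7 time points, was 28, and it ran from 28 to 36 with the median as centre, the 75th percentile over probes bright on all arrays, quantile normalization, normexp, the deposited log2 values, the 30 min scanner file, outlier-marked spots kept, no filter or a 2-fold line. It was 3 with both arrays bright, 10 with the mean of the 3 other arrays of the same slide in place of CTR, and 13 with the probes of a gene averaged. Counts chosen after seeing the data were 22 without 30 min, 15 without 30 min and 2 h, and 0 on slide 1 alone. The number at least 3-fold lower was 0, where only SAA3 probes bright in CTR could be called lower. It became 1 with the median as centre, 7 with the same-slide reference, 3 without a filter and 3 at 2-fold. With the same-slide reference 10 of the 28 called values changed sign, namely LTF A_73_116655 at 30 min (-2.36), LTF A_73_P048381 at 2 h (-0.48) and 4 h (-0.76), S100A12 A_73_115208 at 4 h (-1.25) and 16 h (-0.72), S100A8 at 4 h (-0.66) and 16 h (-0.059), and S100A9 A_73_110650 at 2 h (-0.13), 4 h (-0.77) and 16 h (-0.40). For slide 2 this reference is made of arrays that were themselves above CTR. No called value changed sign under the other alternatives. In the 30 min scanner file S100A8 and S100A9 had no usable value, and the SAA3 probes were 3.11 to 3.23 above CTR in place of 0.68 to 0.75. LTF A_73_116655 and A_73_P048381 were 6.08 and 3.96 above CTR there, the latter in place of 1.37. These SAA3 and LTF spots lie in rows where scanner levels followed the deposited ones (r = 0.97) but were higher by a median of 2.44. Their scanner changes hold this offset, so the larger values are not a separate disagreement about SAA3 or LTF. With the outlier-marked spot kept, the count gained LTF A_73_116655 at 16 h. For SAA3 A_73_110703 the difference of 16 h from 2 h ran from 1.42 to 2.23 and that of 24 h from 8 h from -1.88 to -1.12. Of the 12 counts of the related lists, 2 moved beyond 1.5 times with the median as centre, 1 with each of the 75th percentile over bright probes and quantile normalization, 3 with normexp, 0 with the deposited values and 7 with both arrays bright. For dim CTR probes only a bound is known, so sizes of the alarmin and LTF differences are limited by the background of the CTR array.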
